A study of Arabidopsis thaliana with 12 samples.

Results

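The A-, B- and D-type cyclins of *Arabidopsis* were followed in whole seedlings of *jazQ*, *phyB*, *jazQ phyB* and WT. Cyclins are the regulatory subunits that switch on cyclin-dependent kinases (CDKs) and so time the steps of the cell division cycle. D-type cyclins act mostly in G1, where their kinases phosphorylate the retinoblastoma-related protein RBR1 and thereby release E2F factors that drive the genes of DNA replication. A-type cyclins act from the onset of DNA replication to mitosis, B-type cyclins act around the entry into mitosis, and in seedlings their transcripts come mainly from the meristems, the young leaves and the stomatal lineage. Members were taken by gene symbol, as every gene whose symbol names a cyclin of class A, B or D with a subclass and a member number. This rule found 30 of the 33602 genes in the tables, 10 in each class, and used no measured value.

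WT was the accession Col-0. The *jazQ* line was mutant for the genes *JAZ10*, *JAZ9*, *JAZ4*, *JAZ3* and *JAZ1*, each hit by a T-DNA, which encode repressors of jasmonate (JA) responses, and *phyB* carried the *phyB-9* allele of the red light photoreceptor gene in the same accession. The *jazQ phyB* line held all 6 mutations. Seedlings of all genotypes grew for 8 days in continuous light on vertical plates with sucrose in the medium, and WT and mutant seedlings shared plates. Each of the 3 independent libraries per genotype pooled about 200 whole seedlings with their roots, so that every level is an average over dividing and non-dividing cells of all organs, and fewer cells of a type cannot be told apart from less RNA per cell.

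The 12 libraries held between 12750074 and 26347184 counts. TPM is the deposited expression level, scaled by transcript length and library size. The gene *JAZ1* had 4.65 to 6.05 TPM in *jazQ* and 5.85 to 7.47 in *jazQ phyB*, against 26.6 to 42.6 in *phyB* and 44.2 to 59.95 in WT. *JAZ4* was lower as well, with 1.95 to 2.86 TPM in *jazQ* and 3.08 to 3.47 in *jazQ phyB*, against 5.32 to 5.78 in *phyB* and 4.77 to 6.29 in WT. Levels over a whole gene did not check the remaining lesions, since *JAZ3* and *JAZ10* had far higher levels in both *jazQ* lines than in WT, *JAZ9* was not lower there, and *PHYB* transcripts remained at 17.8 to 20.5 TPM in both *phyB* lines against 24.2 to 28.4 TPM in the other lines.

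D-type cyclins held the highest levels of the family. The scaling by length allows levels to be set side by side between genes. Averaged over the 12 libraries, *CYCD3;2* (AT5G67260) was highest with 65.2 TPM, followed by *CYCD3;3* (AT3G50070) with 36.6 TPM and *CYCD3;1* (AT4G34160) with 26.2 TPM. These D3 cyclins are known for keeping cells of young leaves in the mitotic cycle, and together they held 34.9% of the summed TPM of all members. The libraries of AT5G67260 spanned 58.4 to 77.2 TPM and those of AT3G50070 spanned 30.5 to 39.9 TPM, so the first and the second rank did not overlap in any library. The third rank spanned 22.8 to 31.7 TPM and overlapped with both of its neighbours. From there the order ran through *CYCA3;2* (AT1G47210, 23.2 TPM), *CYCD2;1* (AT2G22490, 22.0 TPM) and *CYCB1;2* (AT5G06150, 21.2 TPM) in steps smaller than the spread between libraries. At the other end, *CYCD7;1* (AT5G02110), known for the last division of the stomatal lineage, had 0.20 to 0.56 TPM from 3 to 9 counts per library. *CYCA3;3* (AT1G47220) had 0 counts in all 12 libraries, where a floor of 3 counts stands for 0.114 to 0.235 CPM, the count relative to library size. These 2 genes did not pass the filter on low counts, which left 28 members among the 20957 genes tested.

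**Figure D1:**
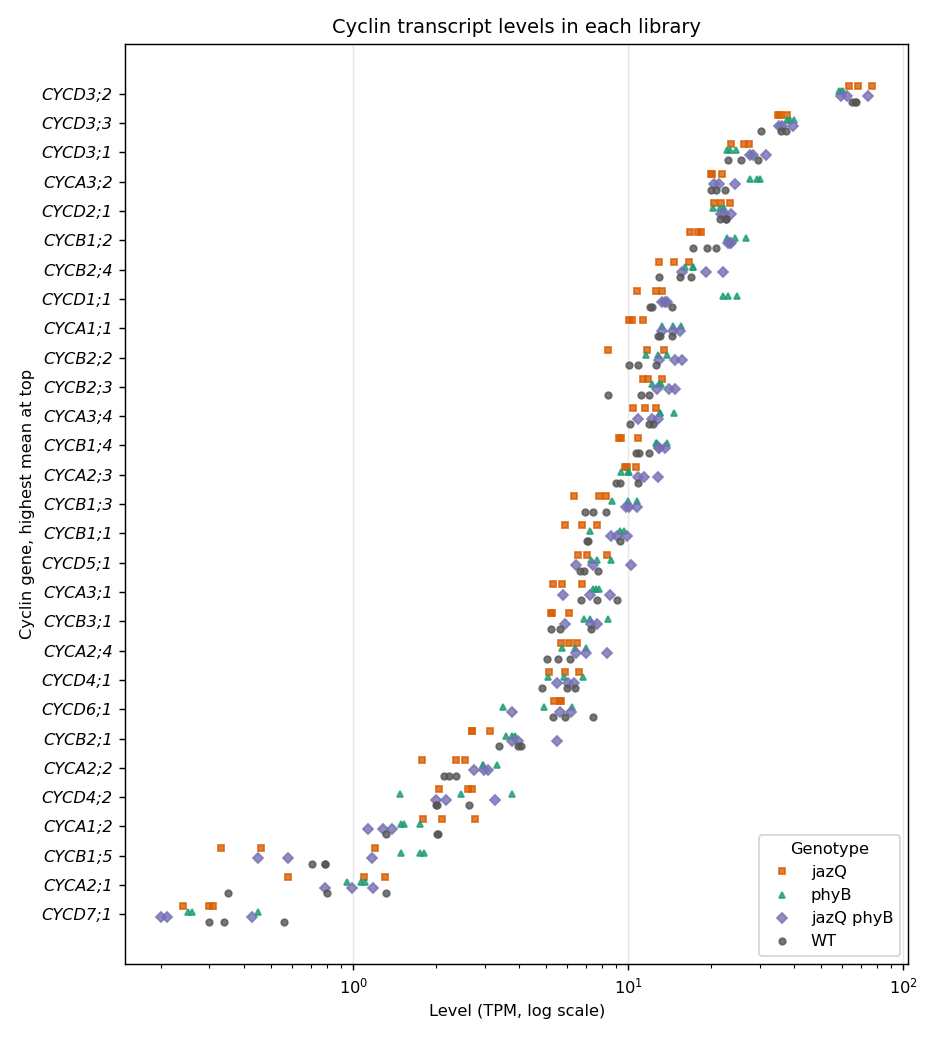
Level of each detected member in every library, in TPM on a logarithmic axis, with genes ordered by their mean over the 12 libraries and 3 points per genotype. The spread between genes, from 0.20 to 77.2 TPM, is far wider than that between genotypes, and AT1G70210 and AT1G47210 in *phyB* are among the rows in which 1 genotype stands clear of the others.

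The classes also differed in the letters upstream of their genes. The MYB3R factors, which regulate the genes of mitosis, are known to recognise the mitosis-specific activator (MSA) element, whose core is AACGG. In windows that ran from 250 bases before to 50 bases after the annotated gene start, read from the RefSeq assembly TAIR10.1, this core stood on either strand in 8 of 10 B-type, 4 of 10 A-type and 1 of 10 D-type genes, against 24.7% of 27443 protein-coding genes. An E2F site (TTTCCCGC, TTTGGCGC, TTTGCCGC or TTTCGCGC, either strand) was found in 1 A-type and 1 D-type gene, against 1.76% of all windows. A G-box (CACGTG, which reads alike on both strands), the site of MYC and PIF factors, was found in 1 member, the B-type gene AT1G20610, against 7.68% of all windows. No matched sites overlapped each other in the windows of the named genes. A match is only a match of letters.

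Of the B-type genes, AT1G76310 and AT1G34460 held no core, and a link between cores and transcript levels was not tested. The most abundant B-type gene, AT5G06150, held 5 MSA cores, and 3 of these are shown with the cores in capitals. Its windows lie on the minus strand of chromosome 5 at chr5:1861829-1861858, chr5:1861755-1861784 and chr5:1861729-1861758, and positions count from the first base of the gene as 0.
AT5G06150, position -143: tatttacagtccAACGGcctcattcgatga
AT5G06150, position -69: ctaacctatccaCCGTTagatctaaaattt
AT5G06150, position -43: atttaatcatctAACGGcaacagatgaaat

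Its relative AT3G11520 (minus strand, chr3:3627320-3627349 and chr3:3627295-3627324) carried the pair in the same order, and the D-type gene AT3G50070 (minus strand, chr3:18566920-18566949) is shown for its E2F site (TTTGGCGC, read from the other strand), in capitals.
AT3G11520, position -64: cctccttatccaCCGTTagatttaaagttc
AT3G11520, position -39: agttcatcatccAACGGctagaagtctaat
AT3G50070, position -104: aattttctcgcGCGCCAAAcatccgaatat

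**Figure D2:**
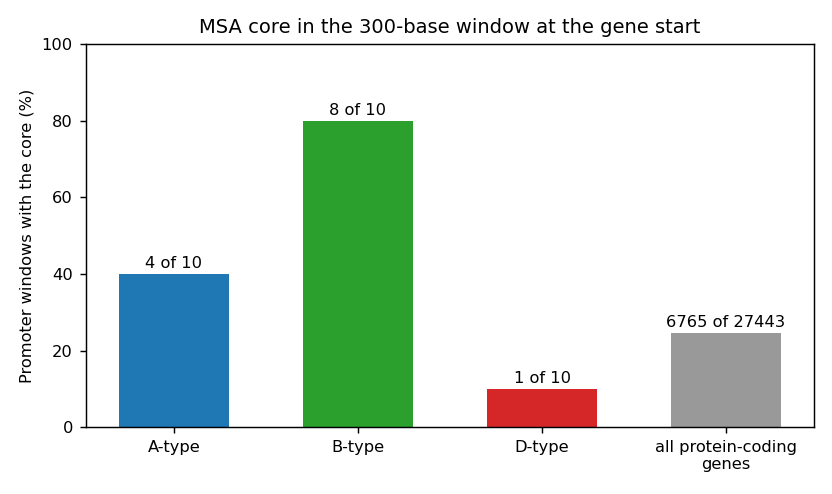
Share of promoter windows, in percent, that hold the MSA core on either strand, for the A-, B- and D-type cyclins and for all protein-coding genes, with the counts above the bars. The B-type bar stands at 8 of 10 and the D-type bar at 1 of 10, beside 24.7% of all genes.

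Mutants were set against WT to ask whether loss of the 5 JAZ repressors, of phyB or of both changed cyclin transcripts. Counts were normalized to CPM and tested with the quasi-likelihood test of edgeR across all genes tested, with an adjusted p below 0.01 as the threshold for a call. Of the 28 tested members, 2 were called higher in *phyB* and none lower, where 11.8% of all genes tested were called and 4.70% were called higher. In *jazQ*, 0 members were called, where 1.54% of all genes tested were called. There 3 members had an unadjusted p below 0.05, beside 3601 of all 20957 genes tested. In *jazQ phyB*, 0 members were called, where 9.77% of all genes tested were called. There 4 members had an unadjusted p below 0.05, beside 6405 of all 20957 genes tested. DESeq2 called 0 members in *jazQ* and 0 in *jazQ phyB* as well. The median log2 difference over the tested members was -0.01 in *jazQ*, 0.03 in *phyB* and 0.06 in *jazQ phyB*, beside medians of -0.01, 0.01 and 0.00 over all genes tested.

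**Figure D3:**
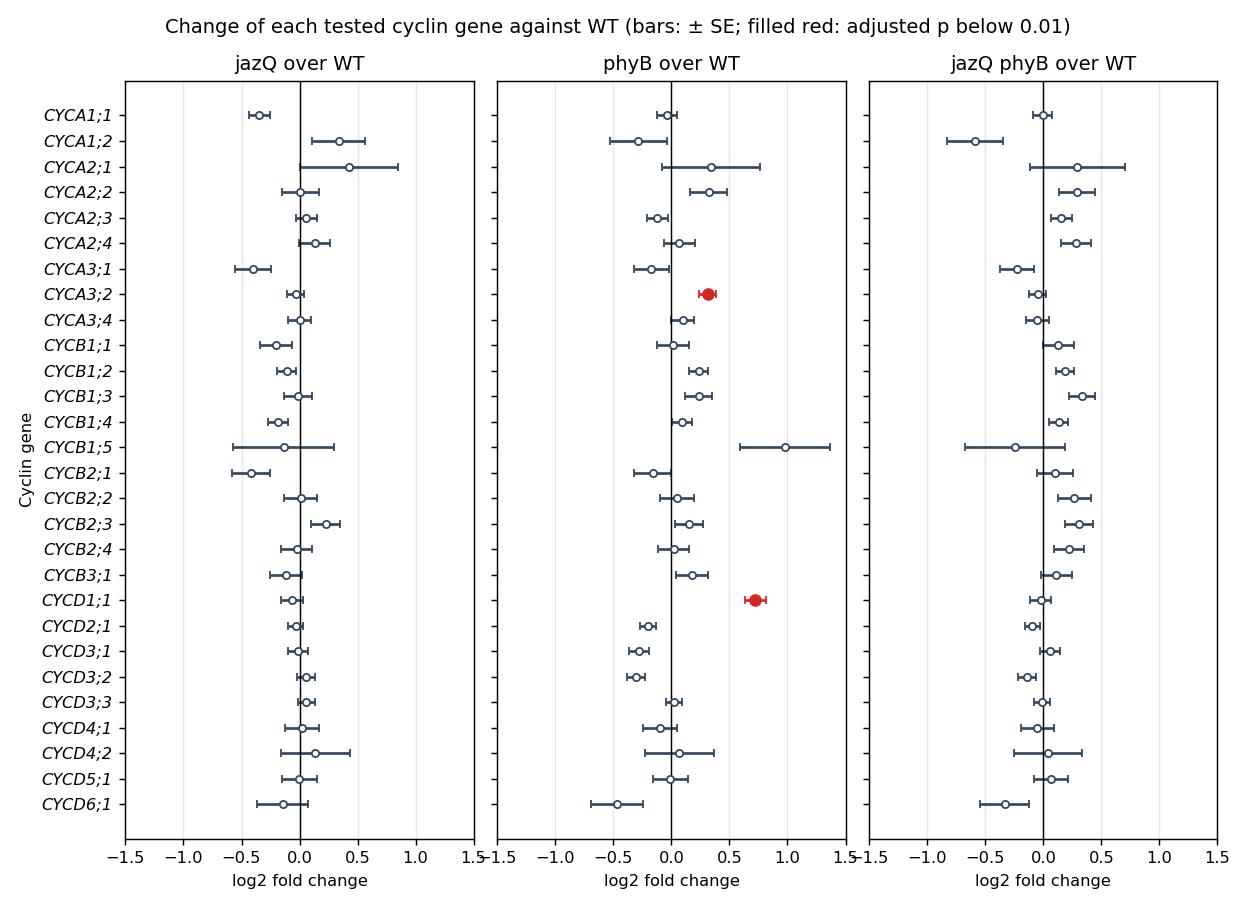
Fitted log2 fold change (± SE) of each of the 28 tested members in *jazQ*, *phyB* and *jazQ phyB* over WT. Filled red points mark the 2 calls, both in *phyB*, at 0.72 for AT1G70210 and 0.31 for AT1G47210, and the widest bars belong to members with few counts.

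The cyclin with the clearest difference was *CYCD1;1* (AT1G70210, chromosome 1, bases 26439556 to 26443007, plus strand), a G1 cyclin known from the return of cells to division during germination. Its CPM values were 35.1, 30.9 and 32.8 in *phyB*, against 18.8, 22.3 and 19.2 in WT. All *phyB* libraries thus lay above all WT libraries. The gene rose 1.65-fold in *phyB* (log2 difference 0.72, SE 0.09, edgeR adjusted p = 8.49e-05). Its call held in every alternative fit that was run and with any library left out.

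In *jazQ phyB* and *jazQ* the same gene overlapped with WT. The CPM values were 21.0, 19.6 and 16.6 in the *jazQ* line and 19.2, 19.9 and 19.8 in the *jazQ phyB* line. The log2 difference from WT was -0.03 in *jazQ phyB*, with a 95% interval from -0.22 to 0.17, and -0.06 in *jazQ*, with an interval from -0.27 to 0.14. Against *phyB*, the gene was 1.68-fold lower in *jazQ phyB* (log2 difference -0.75, SE 0.09, edgeR adjusted p = 6.27e-05), and here too no library of *jazQ phyB* reached the range of *phyB*. Loss of phyB thus went with a log2 difference of 0.04 (SE 0.09) in the *jazQ* background, against 0.72 in the WT background.

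The interaction term tests this difference between backgrounds, as the log2 difference of *jazQ phyB* from *jazQ* less that of *phyB* from WT. It was -0.68 for AT1G70210 (SE 0.13, edgeR adjusted p = 0.00529), the only member called, where 3.61% of all genes tested were called. This call held in all 8 alternative fits with every library but rested on a narrow margin. The adjusted p was 0.0102 to 0.0184 when any of WT replicates 1 and 3, *jazQ* replicates 1 and 2, or the replicates 1 to 3 of *phyB* and *jazQ phyB* was left out, with the log2 value between -0.60 and -0.72, and the call held only without WT replicate 2 or *jazQ* replicate 3.

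The second member called, AT1G47210 (chromosome 1, bases 17300691 to 17302914, plus strand), belongs to the A3 subclass, whose transcripts are known to peak around the start of DNA replication. Its CPM values were 31.1, 29.96 and 28.9 in *phyB*, against 23.5, 25.5 and 23.5 in WT. It rose 1.24-fold in *phyB* (log2 difference 0.31, SE 0.07, edgeR adjusted p = 0.00684), with no overlap between libraries. The margin was small, since the adjusted p was 0.0102 to 0.0334 without any 1 of WT replicates 1 and 3, *jazQ* replicate 1, *phyB* replicates 1 to 3 and *jazQ phyB* replicate 1, and 0.0128 when only *phyB* and WT entered the fit.

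The values of AT1G47210 were 22.6, 21.9 and 25.4 CPM in *jazQ phyB* and 23.4, 22.6 and 24.6 CPM in *jazQ*, which both overlapped with WT. Against *phyB*, *jazQ phyB* was 1.29-fold lower (log2 difference -0.36, SE 0.07, edgeR adjusted p = 0.00255), and its libraries lay below all of *phyB*. That call was lost without *phyB* replicate 1 or 2 or *jazQ phyB* replicate 1 or 2 (adjusted p 0.0117 to 0.0159). The interaction was -0.33 (SE 0.10) and missed the threshold (edgeR adjusted p = 0.0595), so a different response of this gene in the *jazQ* background was not shown.

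AT1G70210 and AT1G47210 were also the 2 members called between *jazQ phyB* and *phyB*, both lower in *jazQ phyB*, where 11.8% of all genes tested were called and 5.76% were called lower. Between these lines 9 members did not overlap, 5 higher and 4 lower in *jazQ phyB*, where 40.3% of all genes tested did not. The comparisons of *phyB* with WT and of *jazQ phyB* with *phyB* use the same *phyB* libraries. Neither gene held an MSA core, an E2F site or a G-box in its window, and neither shared a stretch of 50 bases of its exons with another place in the genome. A relative of AT1G47210 nearby on chromosome 1, *CYCA3;4* (AT1G47230), was not called in any comparison, with a log2 difference of 0.10 (SE 0.10) in *phyB* against WT.

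**Figure D4:**
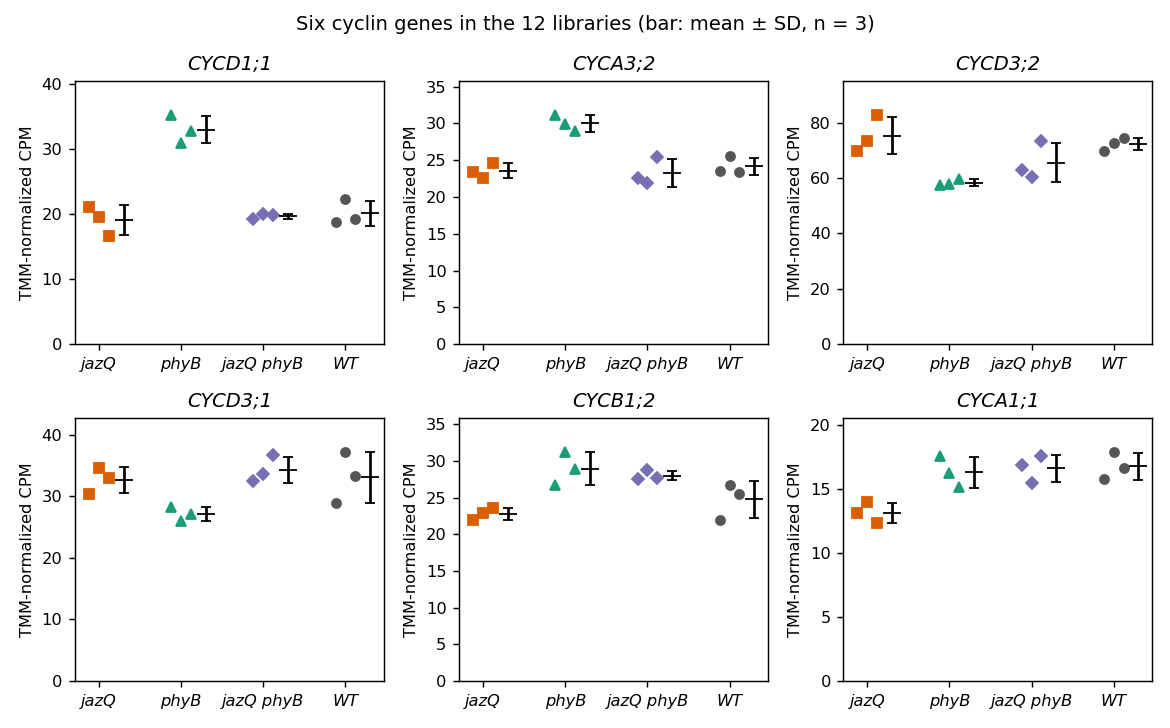
Normalized level in CPM of 6 cyclin genes in each library, with the mean ± SD of 3 libraries beside the points and axes that start at 0. In the first panel the *phyB* libraries sit at 30.9 to 35.1 CPM, above the 16.6 to 22.3 CPM of all other libraries, and the panels of AT5G67260 and AT4G34160 show their lowest mean in *phyB*.

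Levels of organ markers moved with the genotypes as well. A marker was counted as detected where it was above 0 in at least 1 library of a genotype. The summed TPM of 3 shoot markers (*RBCS1A*, *LHCB1.1* and *CA1*, all detected) was 15620.9 to 16987.8 in *jazQ*, 10395.5 to 11213.5 in *phyB* and 12051.5 to 17315.4 in *jazQ phyB*, against 13860.5 to 15379 in WT. The shoot sum was lowest in *phyB*. These shoot markers are genes of photosynthesis. The paper reports photosynthesis as the leading functional term for genes repressed in *phyB* as well as *jazQ phyB* seedlings. The shoot sum is therefore no measure of the share of shoot tissue, which was not tested. The sum of 7 root markers, all detected, was 57.5 to 58.7 in *jazQ*, 80.0 to 84.99 in *phyB* and 79.7 to 89.2 in *jazQ phyB*, against 62.4 to 64.3 in WT. Most of the gap between *phyB* and WT came from the endodermis gene *CASP1*, which averaged 37.3 TPM in *phyB* and 34.0 TPM in *jazQ phyB*, against 22.6 TPM in WT, whereas *SCR* averaged 17.5 TPM in *phyB* and 19.2 TPM in *jazQ phyB*, against 18.2 TPM in WT. *SHR* averaged 8.77 and 9.91 TPM in these lines, against 6.94 in WT, and *COBL9* 4.03 and 4.95, against 3.22. *EXP7* averaged 10.9 and 13.6 TPM, against 9.47 in WT, and *RHD6* 3.48 and 3.69, against 2.89. The *phyB* libraries of *EXP7* and *RHD6* overlapped with WT. *NRT2.1* stayed at or below 0.14 TPM in every library.

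The sum of 4 root meristem markers, all detected, was 2.01 to 3.18 TPM in *jazQ*, 3.28 to 6.42 in *phyB* and 4.57 to 6.05 in *jazQ phyB*, against 2.34 to 3.53 in WT. Of 3 shoot meristem markers, 2 were detected in each genotype, with sums of 1.80 to 2.37 TPM in *jazQ*, 3.48 to 5.33 in *phyB* and 3.04 to 4.92 in *jazQ phyB*, against 2.08 to 2.96 in WT. Nearly all of that sum was *STM*, while *WUS* was at 0 in both *phyB* lines and *CLV3* was at 0 in *jazQ* and WT. No library had more than 0.08 TPM of *WUS* or 0.25 TPM of *CLV3*, so these values of 0 do not set the genotypes apart. The sum of 5 stomatal lineage markers, all detected, was 33.5 to 35.0 TPM in *jazQ*, 37.3 to 43.1 in *phyB* and 37.1 to 45.8 in *jazQ phyB*, against 32.6 to 37.9 in WT. Within it *MUTE* had 2.45 to 4.37 TPM in *phyB*, against 3.70 to 5.11 TPM in WT. On the TPM scale the median gene was itself 0.14 higher in *phyB* and 0.10 higher in *jazQ phyB* than in WT (log2 of TPM + 1), which all these sums include. The sum of 3 lateral root markers, all detected, was 1.84 to 3.13 TPM in *jazQ*, 2.74 to 3.06 in *phyB* and 2.60 to 3.77 in *jazQ phyB*, against 1.93 to 2.46 in WT. The part of these tissues in the cyclin levels was not tested.

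The other D-type cyclins moved little, and in *phyB* 6 of the 9 tested D-type genes had a negative log2 difference from WT, none of them called. AT5G67260, the most abundant cyclin, had 57.5, 57.8 and 59.7 CPM in *phyB*, against 69.9, 72.6 and 74.5 CPM in WT. These libraries did not overlap, but the log2 difference of -0.31 (SE 0.08) missed the threshold (edgeR adjusted p = 0.0122). DESeq2 called it (adjusted p = 0.00457), as did edgeR when low genes were kept (0.00864), when only both genotypes were fitted (0.00292) or with a replicate block (0.00372). By contrast limma on the TPM scale, which includes the upward shift of the median gene in *phyB*, did not. Its values were 69.7, 73.3 and 82.7 CPM in *jazQ* and 62.8, 60.5 and 73.6 CPM in *jazQ phyB*, and both groups overlapped with WT.

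Of the other genes with high levels, AT4G34160 and AT2G22490 were picked for mention after their values were seen. AT4G34160 had 28.2, 26.0 and 27.05 CPM in *phyB*, against 28.9, 37.2 and 33.3 CPM in WT (log2 difference -0.28, SE 0.09, edgeR adjusted p = 0.0370). In *jazQ phyB* it had 32.5, 33.7 and 36.6 CPM, all above the *phyB* libraries (log2 difference 0.34, SE 0.09, edgeR adjusted p = 0.0147). AT2G22490, which is known for its response to sucrose, had a log2 difference of -0.20 (SE 0.07) in *phyB* against WT (edgeR adjusted p = 0.0408), again without overlap. None of these differences was called by edgeR with all libraries in the fit. The one of AT4G34160 between *jazQ phyB* and *phyB* was called by DESeq2 (adjusted p = 0.00981), by edgeR with only both genotypes (0.00530) and without WT replicate 1 (0.00581) or 2 (0.00849).

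By contrast AT3G50070 was level across the genotypes. It had 37.8, 37.5 and 39.6 CPM in *jazQ*, 36.2, 38.0 and 37.3 CPM in *phyB* and 35.6, 35.1 and 38.4 CPM in *jazQ phyB*, against 37.7, 39.4 and 33.1 CPM in WT. All groups overlapped with WT, and its log2 differences from WT lay between -0.01 and 0.06 (SE 0.07 each). The 4 D-type genes tested of the D4, D5 and D6 subclasses had log2 differences from WT between -0.47 and 0.14, all with overlapping libraries.

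No B-type cyclin was called by edgeR in any comparison, but their log2 differences from WT had mostly the same sign in both *phyB* lines. Of the 10 B-type genes, 9 had a positive log2 difference in *phyB* against WT (median 0.12) and 9 in *jazQ phyB* against WT (median 0.16), whereas 8 were negative in *jazQ* against WT (median -0.11). The median over all genes tested lay within 0.01 of 0 in each of these comparisons. The groups shared the WT libraries. In *jazQ phyB* against *jazQ*, 9 of 10 were again positive with a median of 0.28, and 5 of the 10 had all *jazQ phyB* libraries above all *jazQ* libraries, where 15.4% of all genes tested did so. This was not particular to the B-type genes. Of 54 other cell cycle genes tested, 43 were positive (median 0.17) and 11 negative in this comparison, and 19 had all *jazQ phyB* libraries above all *jazQ* libraries. Over all 28 members, 8 did not overlap between these lines, 7 higher and 1 lower, beside 31.5% of all genes tested. No member was called in this comparison, where 6.79% of all genes tested were called. With DESeq2 it was 0 as well. By edgeR 8 of the 28 members had an unadjusted p below 0.05, beside 5968 of all 20957 genes tested. On the TPM scale, which includes the shift of the median gene, limma called 3 members higher in *jazQ phyB* with either pseudocount, namely AT5G06150, *CYCB1;4* (AT2G26760) and the A-type gene *CYCA1;1* (AT1G44110), with adjusted p values of 0.00750, 0.00623 and 0.00703 for log2 of TPM + 1. The share of all genes that limma called is not given here, so this count cannot be set against a background.

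Summed over the class, the B-type TPM was 84.7 to 96.3 in *jazQ*, 106 to 118 in *phyB* and 110 to 120 in *jazQ phyB*, against 84.2 to 103 in WT. These sums too include the shift of the median gene on the TPM scale, of 0.14 in *phyB* and 0.10 in *jazQ phyB*. Relative to the median gene the B-type median was 0.11 higher in *phyB* and 0.15 higher in *jazQ phyB* than in WT on that scale, and 0.27 higher in *jazQ phyB* than in *jazQ*. The D-type sums showed no such gap, with 177 to 197 TPM in *jazQ*, 187 to 189 in *phyB* and 182 to 203 in *jazQ phyB*, against 177 to 195 in WT. The A-type sums were 69.2 to 71.0 TPM in *jazQ*, 83.5 to 90.6 in *phyB* and 75.5 to 86.3 in *jazQ phyB*, against 69.8 to 80.7 in WT. Within them AT1G47210 alone averaged 29.0 TPM in *phyB* and 21.1 TPM in WT. Both the A-type and the D-type sums include the shift of the median gene as well. Relative to the median gene, the A-type median against WT was 0.03 in *phyB* and -0.01 in *jazQ phyB* (log2 of TPM + 1). The D-type median was -0.10 and -0.02 in this order.

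AT5G06150, the B-type gene with 5 MSA cores, had 21.9, 22.9 and 23.6 CPM in *jazQ*, 26.8, 31.2 and 28.9 CPM in *phyB* and 27.6, 28.7 and 27.7 CPM in *jazQ phyB*, against 22.0, 26.7 and 25.6 CPM in WT. Libraries of the *phyB* lines lay above those of WT, the closest pair being 26.8 and 26.7 CPM, and *jazQ* overlapped with WT. The log2 difference was 0.23 (SE 0.08) in *phyB* against WT (edgeR adjusted p = 0.0505), 0.19 (SE 0.08) in *jazQ phyB* against WT (0.128) and 0.30 (SE 0.08) in *jazQ phyB* against *jazQ* (0.0249). On the TPM scale limma called the difference of *phyB* from WT (adjusted p = 0.00536 with log2 of TPM + 1) and the one of *jazQ phyB* from *jazQ*. Both include the upward shift of the median gene on that scale, which was 0.14 in *phyB* and 0.10 in *jazQ phyB* against *jazQ*. Of its exon stretches of 50 bases, 11.3% also occur elsewhere in the genome, which includes the related gene AT1G34460, so its count is less certain than that of most members.

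*CYCB2;4* (AT1G76310), the second most abundant B-type gene, had 15.4, 16.9 and 13.1 CPM in *jazQ*, 16.0, 15.9 and 15.2 CPM in *phyB* and 15.0, 18.5 and 20.9 CPM in *jazQ phyB*, against 13.2, 17.2 and 16.3 CPM in WT. All groups overlapped. Its largest log2 difference from WT was 0.22 (SE 0.13) in *jazQ phyB*. The B-type gene with the highest value in *jazQ phyB* against *jazQ* was *CYCB2;1* (AT2G17620), mentioned after its values were seen, with 4.57, 4.41 and 6.23 CPM in *jazQ phyB*, against 3.42, 3.32 and 3.86 CPM in *jazQ* (log2 difference 0.52, SE 0.16, edgeR adjusted p = 0.0455).

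The B-type gene with the largest fitted change in *phyB* was *CYCB1;5* (AT1G34460), which had only 6 to 30 counts per library. It had 1.45, 0.406 and 0.500 CPM in *jazQ*, 1.95, 1.78 and 1.600 CPM in *phyB* and 0.615, 0.470 and 1.21 CPM in *jazQ phyB*, against 0.930, 0.920 and 0.823 CPM in WT. The *phyB* libraries lay above all others. The log2 difference was 0.98 (SE 0.39) in *phyB* against WT (edgeR adjusted p = 0.0870) and -1.22 (SE 0.40) in *jazQ phyB* against *phyB* (0.0405), neither of them called, and the interaction was -1.09 (SE 0.59, adjusted p = 0.286). Of its exon stretches of 50 bases, 15.6% are repeated in the genome, some of them in AT5G06150, and its count is uncertain for that reason as well.

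**Figure D5:**
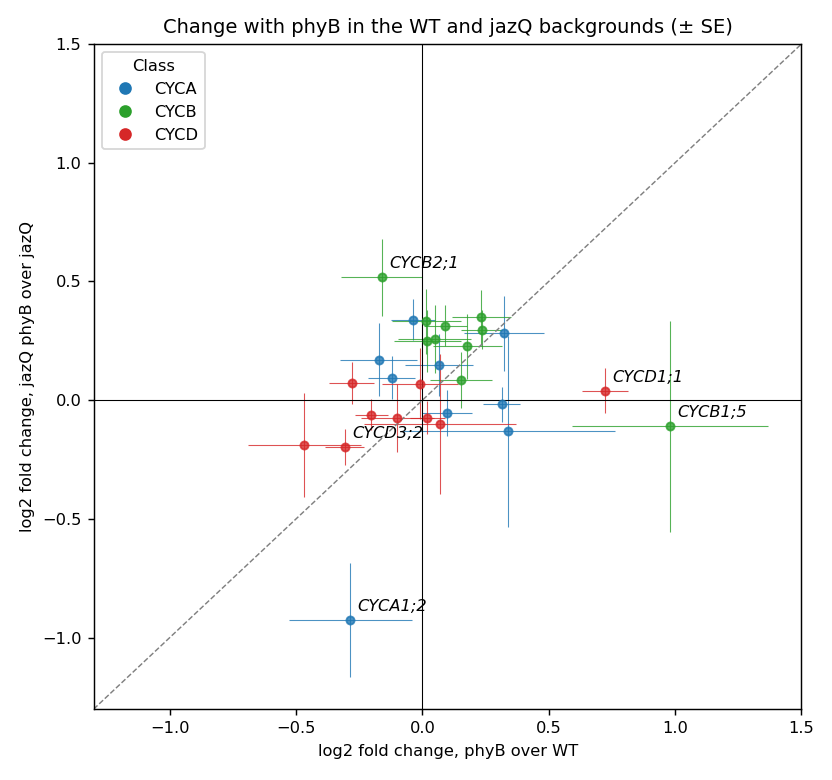
Log2 fold change (± SE) of each tested member for *phyB* over WT on the horizontal axis and for *jazQ phyB* over *jazQ* on the vertical axis, which use separate libraries, with the dashed line marking equal changes. AT1G70210 lies at 0.72 and 0.04, far below the line, and 9 of 10 B-type genes lie above 0 on each axis.

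Among the A-type genes, AT1G44110 had its lowest values in *jazQ*, with 13.1, 13.9 and 12.4 CPM in *jazQ*, 17.5, 16.2 and 15.1 CPM in *phyB* and 16.8, 15.5 and 17.5 CPM in *jazQ phyB*, against 15.8, 17.9 and 16.6 CPM in WT. No *jazQ* library reached the range of WT, and both other lines overlapped with WT. The log2 difference was -0.35 (SE 0.09) in *jazQ* against WT (edgeR adjusted p = 0.0397) and 0.34 (SE 0.09) in *jazQ phyB* against *jazQ* (0.0186), neither past the threshold. It was 1 of 4 members whose *jazQ* and WT libraries did not overlap, all of them lower in *jazQ*, where 20.4% of all genes tested did not overlap. Its window held 3 MSA cores. That of the A-type gene AT1G77390, described next, held 3 cores and 1 E2F site, and this gene had a negative log2 difference in *jazQ phyB* against *jazQ*. In *phyB*, 8 members did not overlap with WT, 5 higher and 3 lower, where 39.5% of all genes tested did not, and in *jazQ phyB* 6 did not, 4 higher and 2 lower, where 32.9% of all genes tested did not.

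*CYCA1;2* (AT1G77390), also known as *TAM*, is a cyclin of meiosis with 21 to 46 counts per library here. It had 1.19, 1.47 and 1.33 CPM in *jazQ phyB*, against 2.43, 3.11 and 2.00 CPM in *jazQ*, 1.80, 1.56 and 1.55 CPM in *phyB* and 1.47, 2.30 and 2.35 CPM in WT. The *jazQ phyB* libraries did not overlap with those of any other genotype, although the highest of them met the lowest WT library at 1.47 CPM. The log2 difference was -0.93 (SE 0.24) in *jazQ phyB* against *jazQ* (edgeR adjusted p = 0.0191) and -0.59 (SE 0.24) against WT (0.114), so neither was called.

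*CYCA2;1* (AT5G25380) had the largest fitted change in *jazQ* and illustrates the limit set by low counts, with 8 to 23 counts per library. Its values were 1.33, 1.08 and 0.571 CPM in *jazQ*, against 0.349, 1.30 and 0.823 CPM in WT. The groups overlapped widely, and the log2 difference of 0.43 (SE 0.42, edgeR adjusted p = 0.685) turned to -0.04 without WT replicate 1.

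Other genes of the cell cycle were counted beside the cyclins, as 56 genes in 6 roles, of which 54 were tested. In *phyB* against WT, 1 of the 54 was called, where 11.8% of all genes tested were called, and this was the replication clamp gene *PCNA1* (log2 difference 0.43, SE 0.09, edgeR adjusted p = 0.00417). Its CPM values were 18.3, 17.6 and 16.3 in *phyB*, against 14.0, 12.0 and 12.5 in WT, without overlap. All 10 listed genes of DNA replication, which include the *MCM2* to *MCM7* helicase genes, had a positive log2 difference in *phyB* against WT (median 0.24) and a negative one in *jazQ phyB* against *phyB* (median -0.24), beside medians of 0.01 and 0.00 over all genes tested. These comparisons share the *phyB* libraries. In *jazQ phyB* against WT, 5 of the 10 were positive, with a median of 0.02. In *jazQ* against WT, 9 of the 10 were negative (median -0.15). In *jazQ phyB* against *jazQ*, 9 of the 10 were positive (median 0.20). Their interaction was positive for 4 and negative for 6 genes (median -0.04), with none called, so a different response in the *jazQ* background was not shown for them.

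In *jazQ* and in *jazQ phyB* against WT, 0 of the 54 genes were called, by edgeR and by DESeq2. Of all genes tested, edgeR called 1.54% in *jazQ* and 9.77% in *jazQ phyB*. In each, 10 of the 54 had an unadjusted p below 0.05 by edgeR, beside 3601 and 6405 of all 20957 genes tested. On the TPM scale, which includes the shift of the median gene, limma called 2 of the 54 in *jazQ phyB* against WT. The share of all genes that limma called there is not given. Genes of the RBR, E2F and MYB3R regulators were negative in *jazQ* against WT in 12 of 13 cases (median -0.14). This was not particular to them, since 9 of 10 DNA replication genes (median -0.15) and 40 of all 54 genes (median -0.08) were negative there. Of all 20957 genes tested, 11016 were negative (median -0.01). Between *jazQ phyB* and *jazQ*, where 6.79% of all genes tested were called, the CDK inhibitor gene *KRP2* was the 1 called, higher in *jazQ phyB* (log2 difference 0.35, SE 0.08, edgeR adjusted p = 0.00974). Between *jazQ phyB* and *phyB*, where 11.8% of all genes tested were called, 2 of the 54 were. *CDC20.2*, an activator of the ubiquitin ligase that removes mitotic cyclins, was higher in *jazQ phyB* (0.42, SE 0.09, edgeR adjusted p = 0.00546), and *DEL2*, an atypical E2F, was lower (-0.89, SE 0.22, edgeR adjusted p = 0.00950). The interaction was called for 1 of the 54, *KRP1*, another CDK inhibitor, at 0.71 (SE 0.15, edgeR adjusted p = 0.00841), where 3.61% of all genes tested were called. These calls had small margins, and of the 12 fits that left out 1 library each, 8 kept the call of *PCNA1*, 3 that of *KRP2*, 6 that of *CDC20.2*, 0 that of *DEL2* and 2 that of *KRP1*, with adjusted p values up to 0.0229, 0.0541, 0.0318, 0.0556 and 0.0242 in this order.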

How the data were processed

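Single-end RNA reads of 12 libraries had been assigned to TAIR10 gene models with RSEM 1.2.11. The authors deposited the RSEM expected counts per gene, which were whole numbers in 100% of cells, and a table of TPM values, which the authors had scaled by transcript length and library size. Groups came from the sample labels and all columns were used.

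Counts were normalized by TMM in edgeR 4.0.16 (R 4.3.3), filtered with filterByExpr (minimum count 10, 20957 genes kept) and fitted with a quasi-likelihood model for the 4 genotypes without a block. The 6 comparisons of the report were adjusted by the Benjamini-Hochberg method over all genes tested and called below 0.01. CPM values are TMM-normalized. The pipeline was also run on simulated counts with large changes in *phyB* only, and its recovery of small changes was not tested. Alternatives were DESeq2 1.42.0, upper-quartile normalization, no filter, at least 10 counts in every library, only the genotypes compared, limma 3.58.1 on log2(TPM + 1) and log2(TPM + 0.1), a replicate block, a threshold of 0.05 and each library left out.

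Members, cell cycle lists and markers were chosen with earlier results of these data known. Values per library are given for members called, for the 2 with the highest TPM of each class and for the one with the largest change in each comparison, and other members named for their values are marked. The floor of 3 counts covers counting error only. Promoter windows were read from the TAIR10.1 genome and RefSeq annotation for all 30 members.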

Additional observations from a re-analysis of the deposited data

Results flagged for a closer look

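The interaction term of the edgeR fit, which tests whether the effect of *phyB* differed between the *jazQ* and the WT background, was called for 2 cyclin or cell cycle genes, where 3.61% of all genes tested were called. For CYCD1;1 the interaction was -0.68 on the log2 scale (edgeR adjusted p = 0.00529), from a log2 difference of 0.04 in *jazQ phyB* against *jazQ* and of 0.72 in *phyB* against WT. For KRP1 it was 0.71 (edgeR adjusted p = 0.00841), from 0.29 in *jazQ phyB* against *jazQ* and -0.42 in *phyB* against WT. The call of KRP1 was lost with limma on TPM (adjusted p = 0.0247 and 0.0250) and with the replicate block (0.0144). Of the 12 fits that left out 1 library each, 2 kept the call of CYCD1;1 and 2 that of KRP1 (adjusted p up to 0.0184 and 0.0242).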

How the results depend on the processing

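Counts of called cyclins kept within 1.5 times under DESeq2, upper-quartile normalization, both count filters and the 2-genotype fits. At an adjusted p below 0.05 they were 1 in *jazQ* and 5 in *phyB* against WT, 5 in *jazQ phyB* against *jazQ* and 5 against *phyB*. On TPM, which includes the shift of the median gene, limma called 3 cyclins in *jazQ phyB* against *jazQ* with either pseudocount. For the alternative settings of this section the share of all genes called is not given, so these counts have no background beside them. With 1 library left out the counts ran from 0 to 0 in *jazQ*, from 1 to 3 in *phyB* and from 0 to 0 in *jazQ phyB* against WT, from 0 to 0 in *jazQ phyB* against *jazQ*, from 1 to 3 against *phyB*, and from 0 to 1 in the interaction. CYCA2;1 in *jazQ* against WT ran from -0.041 (without WT replicate 1) to 0.866 (without WT replicate 2).

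The other cell cycle genes called in *phyB* against WT were 1 in the report, 2 with DESeq2, 2 without the filter, 0 with only both genotypes, 8 on TPM with either pseudocount and 7 at 0.05. In *jazQ phyB* against WT they were 2 on TPM and 4 at 0.05, and in *jazQ* against WT 1 at 0.05. In *jazQ phyB* against *jazQ* they were 2 with DESeq2, 2 with upper-quartile normalization, 0 with only both genotypes, 2 on TPM and 7 at 0.05. Against *phyB* they were 1 with DESeq2, 1 without the filter, 1 with only both genotypes and 9 at 0.05. In the interaction they were 0 on TPM, 0 with the replicate block and 3 at 0.05. With 1 library left out these counts ran from 0 to 0 in *jazQ*, from 0 to 3 in *phyB*, from 0 to 1 in *jazQ phyB*, from 0 to 1 against *jazQ*, from 0 to 2 against *phyB* and from 0 to 1 in the interaction. The cause of these moves was not tested.

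Over all pairs of genotypes, libraries of the same number deviated together no more than others (median correlation 0.008 against 0.011). Correlations of the same number ran from -0.17 to 0.26, 3 of 18 over 0.1. Between *jazQ* and *jazQ phyB* they were 0.06, 0.18 and 0.26. The replicate numbers were not taken as pairs. With a replicate block, 2 cyclins were called in *phyB* against WT, 2 in *jazQ phyB* against *phyB*, 1 in the interaction and 0 in the other comparisons, with CYCD3;2 gained (adjusted p = 0.00372 by edgeR) and CYCA3;2 lost (0.0116) in *phyB* against WT. Members under 50 counts per library allow only wide intervals.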
